A study of Mus musculus with 4 samples.

Results

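Isg15 and the enzymes that attach and remove its product were followed across the cell types of mouse bone marrow after an HDAC inhibitor. The 5 genes were taken by symbol from the 32285 genes of the files. They are Isg15 (ENSMUSG00000035692), Usp18 (ENSMUSG00000030107), Uba7 (ENSMUSG00000032596), Ube2l6 (ENSMUSG00000027078) and Herc6 (ENSMUSG00000029798). The marrow came from the 5TMM model, in which C57BL/KawRij mice receive 5TGM1-luc mouse myeloma cells intravenously, here at 6 weeks of age. All mice of both groups carried these tumor cells and were treated 3 weeks after the injection. 2 mice received vehicle and 2 mice received 10 mg/kg purinostat mesylate (PM), an inhibitor of class I and IIb histone deacetylases, and marrow was taken 24 h later. Red cells were lysed and each mouse gave 1 droplet-based 3′ single-cell RNA library.

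ISG15 is a ubiquitin-like protein that is induced by type I interferons. It is joined to target proteins by a chain of 3 enzymes. UBA7 activates it, UBE2L6 carries it, and in mice HERC6 is the main ligase that passes it to the target. USP18 takes ISG15 off again and also binds the type I interferon receptor, where it dampens signaling. In bone marrow, interferons change how stem cells and myeloid cells behave, and neutrophils and plasmacytoid dendritic cells are known for their interferon programs.

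The genes lie apart in the genome. In GRCm38 coordinates Isg15 is at chr4:156199424-156200818 on the minus strand. Usp18 is at chr6:121245906-121270917, Uba7 at chr9:107975505-107984060, Ube2l6 at chr2:84798828-84810335 and Herc6 at chr6:57581000-57664632, all on the plus strand. All are annotated as protein coding. Promoters were searched because interferon-induced genes often carry a response element close to their start. The 250 bases before the start that RefSeq gives were searched on both strands, for the 4 of the 5 genes that the RefSeq table held, with Usp18 not among them. 3 patterns were sought, namely GAAANNGAAA, the core of the interferon-stimulated response element, its shorter part AANNGAAA, and TTCNNNGAA, the pattern of the gamma-activated site. Below are the 120 bases before the Isg15 start (chr4:156200819-156200938, minus strand) and 30 bases close before the Uba7 start (chr9:107975529-107975558, plus strand), from RefSeq on GRCm38.p6. The Uba7 start in RefSeq lies downstream of the start given above, which is GENCODE's, so that these 30 bases fall inside the gene as GENCODE annotates it. Capitals mark GAAANNGAAA in Isg15, and AANNGAAA as read on the opposite strand in Uba7.
Isg15: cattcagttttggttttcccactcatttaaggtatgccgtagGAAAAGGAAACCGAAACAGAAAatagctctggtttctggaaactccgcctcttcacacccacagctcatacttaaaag
Uba7: actcagtctagTTTCACTTttggtttcctg
The capitals in Isg15 hold 3 overlapping matches that together span the bases 78 to 57 before the start. The longer pattern occurs in 2.98% of the 32851 promoters in the table, the shorter one in 21.3% and the gamma-activated pattern in 7.02%. The windows of Ube2l6 and Herc6 held none of the 3 patterns, and the gamma-activated pattern was in none of the 4 windows. A match or its absence describes the letters of the window only.

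The 4 libraries held 69828595 to 109447030 UMIs, which count single RNA molecules, in 8242 to 13848 barcodes. After removal of barcodes with fewer than 300 genes or more than 20% mitochondrial UMIs, 39743 cells were left. Between 18 and 41 barcode sequences were shared by any 2 libraries. Doublets were called at a rate set beforehand to 0.8% per 1000 cells, so their share of 6.16% to 10.7% per library follows from cell number. They were kept. The cells were clustered without 72 listed interferon-responsive genes, to limit grouping of cells by the response itself. Other genes that move with the response could still enter, and some clusters came mostly from 1 group. From their marker genes 24 types were named. Each name stands for cells like that type. 23 types had at least 10 cells in every mouse. 1 large cluster carried markers of both immature and mature neutrophils and is called by its leading gene, Mmp8. 807 cells stayed unnamed. The 171 clonal plasma cells are plasma cells that express 1 dominant immunoglobulin, as tumor cells do. UMIs were summed per mouse and type and tested with edgeR. Levels are given below as CPM, counts scaled to the summed total after edgeR's TMM factor has adjusted that total for its composition, for vehicle 1, vehicle 2, PM 1 and PM 2 in this order. A gene was called at an adjusted p under 0.05 and an absolute log2 fold change over 0.5. Nothing in the labels says that the mice were handled in separate batches. A figure legend of the paper speaks of 2 independent experiments for the vehicle and PM samples, without assigning mice to them.

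In vehicle mice the 5 genes had different cellular patterns. Isg15 was highest in mature neutrophils, at 60.2 CPM ± 9.24 (SD, n = 2), followed by conventional dendritic cells (cDC, 35.7 ± 31.1) and macrophages (23.6 ± 6.54), and was lowest in neutrophil precursors (1.71 ± 0.674). Usp18 was highest in cDC (40.8 ± 28.5) and plasmacytoid dendritic cells (pDC, 32.5 ± 16), and no UMI of it was found in clonal plasma cells or eosinophils of the vehicle mice. Levels in these 2 types rest on little, as the vehicle eosinophils held only 86628 and 156355 UMIs of all genes. The vehicle mice had 21 and 27 clonal plasma cells, of which 76.2% and 48.1% were called doublets. Uba7, the activating enzyme, was highest in megakaryocytes (77.3 ± 7.04) and stromal cells (76.0 ± 29.6) and lowest in clonal plasma cells (12.3 ± 9.0). The carrier gene Ube2l6 was highest in erythroid cells (192 ± 86.7), stromal cells (77.7 ± 7.01) and immature neutrophils (50.6 ± 3.08). Stromal and cDC levels also rest on little. The vehicle mice had 26 and 27 stromal cells, with 90998 and 99286 UMIs of all genes, and 18 and 37 cDC. Herc6 was highest in T cells (48.2 ± 10.7) and lowest in plasma cells (5.13 ± 2.68) and immature neutrophils (6.72 ± 0.629). Most of these orders are loose. Of the 22 steps between neighboring types in each order, the 2 vehicle mice of both neighbors overlapped in 20 for Isg15, Usp18 and Herc6, in 18 for Uba7 and in 17 for Ube2l6. The plot of Isg15 and Usp18 by mouse gives each level.

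**Figure D1:**
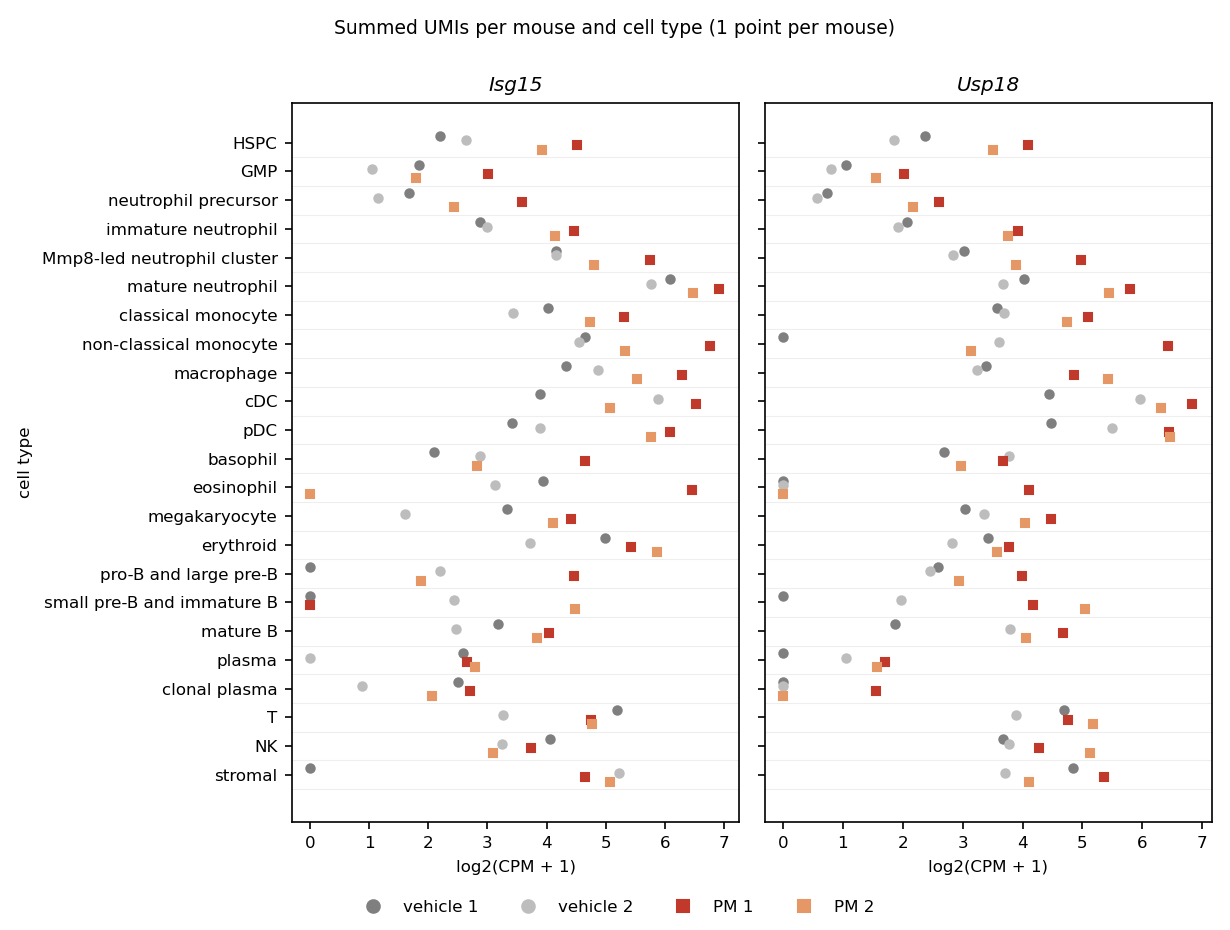
Levels of Isg15 and Usp18 in 23 cell types of the bone marrow, with log2(CPM + 1) of the summed UMIs on the horizontal axis and 1 point per mouse (grey circles vehicle, colored squares PM). In immature neutrophils both PM mice lie to the right of both vehicle mice for both genes, and in T cells the Isg15 points of the groups overlap.

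In the sum over all cells of a mouse, none of the 5 genes was called. In this sum, 0.0128% of all tested genes were called higher. Isg15 was at 17.4, 10.8, 27.9 and 21.7 CPM and Usp18 at 6.94, 6.23, 18.0 and 13.9 CPM. Both PM mice were above both vehicle mice for both genes. The log2 fold changes were 0.81 (SE 0.25, edgeR adjusted p = 0.342) for Isg15 and 1.28 (SE 0.17, adjusted p = 0.167) for Usp18. These 2 genes had an unadjusted p under 0.05, and DESeq2 called 1 of the 5 genes. Values of Uba7 (26.3, 21.4, 25.5 and 26.3 CPM) overlapped between the groups. In such a sum, a change in the share of a cell type and a change of RNA per cell cannot be told apart.

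By cell type, 80 of the 115 pairs of gene and type passed the filter on low counts, and 11 of them were called higher and none lower. Of all tested pairs of gene and type, 1.1% were called higher. Isg15 was called in 3 of the 14 types tested, Usp18 in 5 of 14, Ube2l6 in 2 of 17, Herc6 in 1 of 17 and Uba7 in none of 18. Uba7 had an unadjusted p under 0.05 in 2 types, and DESeq2 called it in none. The median log2 fold changes over the tested types were 1.35, 1.35, 0.88, 0.40 and 0.10 in the same order, beside -0.00 for all genes. No type had all 5 genes called. Immature neutrophils came nearest with 4 of 5. In pDC, Isg15 and Usp18 were called, and in classical monocytes Usp18 and Ube2l6. Neutrophil precursors and mature neutrophils had Usp18 alone and hematopoietic stem and progenitor cells (HSPC) Isg15 alone. DESeq2 called 1 member more in neutrophil precursors and in classical monocytes, Isg15 in both, 1 fewer in immature neutrophils and none in HSPC, and gave no adjusted p for Isg15 and Usp18 in pDC. A gene that missed the call may still have changed. In eosinophils, non-classical monocytes, stromal cells and small pre-B and immature B cells no member passed the filter, in plasma cells and natural killer (NK) cells only Uba7 did, and clonal plasma cells and pro-B and large pre-B cells were tested for Uba7, Ube2l6 and Herc6.

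**Figure D2:**
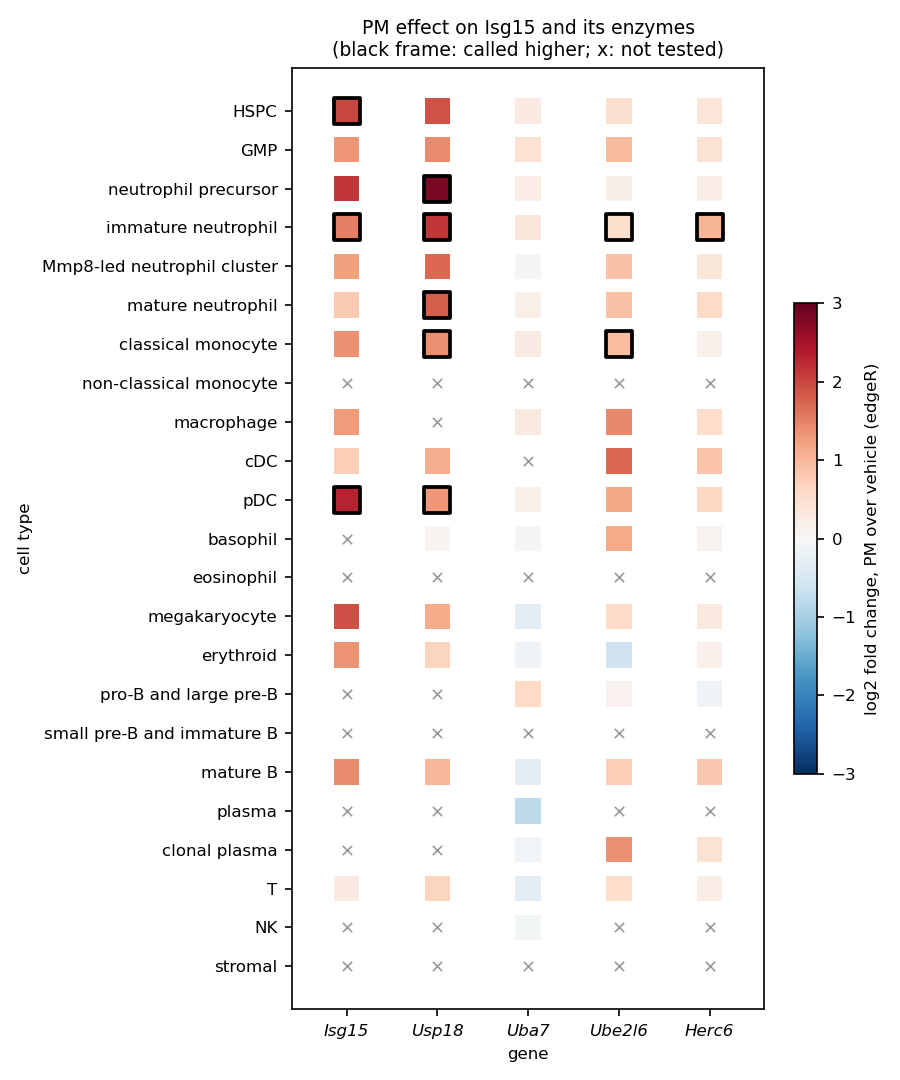
Log2 fold change of PM over vehicle for the 5 genes (columns) in 23 cell types (rows), by color, with a black frame for the 11 pairs called higher and a cross for pairs that did not pass the filter. Immature neutrophils have 4 frames, and the Uba7 column has none.

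Both PM mice lay above both vehicle mice in 11 of the 14 tested types for Isg15, 13 of 14 for Usp18, 15 of 17 for Ube2l6, 8 of 17 for Herc6 and 6 of 18 for Uba7. Of all tested pairs of gene and type, 21.8% had this order. In immature neutrophils, neutrophil precursors and pDC all 5 genes had it. Isg15 and Usp18 had a log2 fold change above 0 in every type in which they were tested, including the types without a call. A pair could pass the filter on low counts through the PM mice alone. Isg15 in HSPC, Usp18 in HSPC and neutrophil precursors, and Ube2l6 in cDC were among those that did so. Such pairs entered only because PM was high, so these counts are no independent support for a rise.

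Immature neutrophils, the stage that fills its granules with lactoferrin, were the largest source of calls, with 7125 cells. The deconjugase Usp18 rose in them from 3.19 and 2.80 CPM to 14.2 and 12.6, a log2 fold change of 2.15 (SE 0.21, edgeR adjusted p = 0.000238). Isg15 rose from 6.31 and 6.95 to 21 and 16.6 (1.51, SE 0.18, adjusted p = 0.000974). The lower PM mouse was above the higher vehicle mouse for both genes. Herc6, the ligase, rose from 7.17 and 6.28 to 12.4 and 15.3 (1.03, SE 0.19, adjusted p = 0.00981). Ube2l6 rose less, from 52.7 and 48.4 to 67.9 and 77.8 (0.52, SE 0.11, adjusted p = 0.0216). The activating enzyme Uba7 was at 23.8, 20.8, 27.5 and 29.4 CPM (0.35, SE 0.13, adjusted p = 0.135). Its groups did not overlap, but it did not pass the test. Of the 10299 genes tested in these cells, 4.85% were called higher. The Isg15 and Usp18 calls held under all 12 alternatives. Ube2l6 lost its call without vehicle 1 (adjusted p = 0.051), without vehicle 2 (0.121), without PM 2 (0.082) and with DESeq2 (0.070). Herc6 lost it without PM 2 (0.050) and when the interferon genes were kept for clustering (0.074).

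The rise was seen in both clusters that make up the immature neutrophils. In CPM of a single cluster, which carry no TMM factor, Isg15 in cluster 1 was at 8.0, 8.9, 24.7 and 22.7 and Usp18 at 5.2, 5.2, 17.5 and 17.6. In cluster 2, Isg15 was at 3.8, 4.5, 15.9 and 10.6 and Usp18 at 0.6, 0.3, 9.6 and 7.3. Both genes were thus lower in cluster 2 than in cluster 1 in every mouse. Other features of these cells moved with the groups. The sum of the 8 immature neutrophil markers was 137158 and 137425 CPM with vehicle and 117808 and 114829 with PM. The 6 markers of granulocyte-monocyte progenitors (GMP) went from 107 and 81.3 to 241 and 157, with none of them at 0, and the median UMIs per cell from 8063 and 8318 to 5588 and 6058.5. Jun, Fos and Fosb, early-response genes that also react to tissue handling, were called higher. The part of these in the result was not tested. Scaling by library size in place of TMM moved the median gene by 0.14 on the log2 scale and the share of higher calls from 82.0% to 93.8%.

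**Figure D3:**
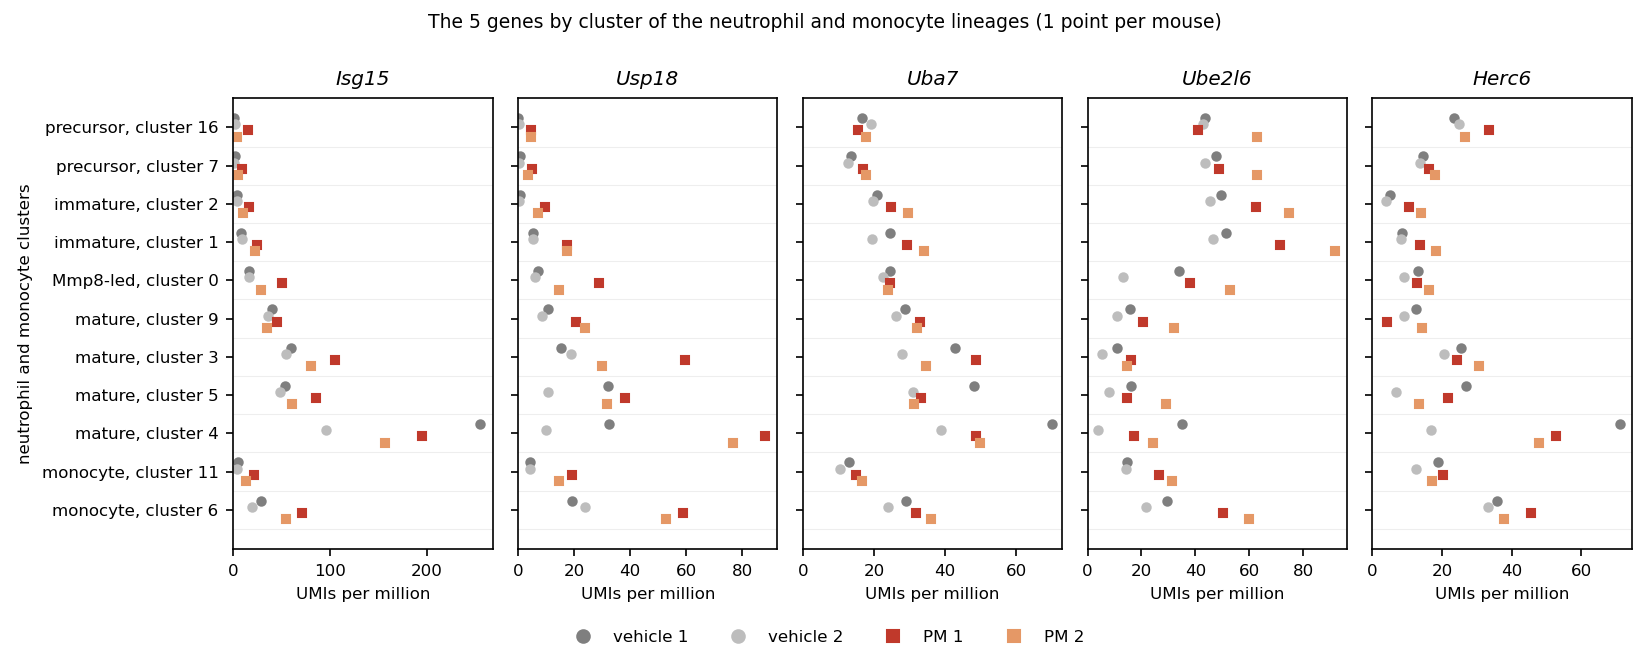
CPM of the 5 genes in the clusters of the neutrophil and monocyte lineages, 1 point per mouse, neutrophil precursors at the top and monocytes at the bottom. In both immature neutrophil clusters the PM mice lie above the vehicle mice for Isg15 and Usp18, and mature neutrophil cluster 4 has the highest Isg15 level of these clusters in every mouse.

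Among the other neutrophil stages edgeR called no member in the Mmp8-led cluster, and in precursors and mature neutrophils it called Usp18 alone. In neutrophil precursors Usp18 rose from 0.678 and 0.492 CPM to 5.10 and 3.49 (log2 fold change 2.82, SE 0.42, edgeR adjusted p = 0.00533), the largest change of the 80. Behind it were 9, 4, 61 and 31 UMIs, and the gene passed the filter on low counts here through the PM mice alone. Isg15 was at 2.18, 1.23, 11 and 4.39 CPM there (2.13, adjusted p = 0.0774). Both genes started near their lowest levels in this type. In mature neutrophils Usp18 rose from 15.3 and 11.8 to 54.5 and 42.6 (1.83, SE 0.21, adjusted p = 0.011). Isg15 was at 66.7, 53.6, 120 and 87.5 CPM (0.78, adjusted p = 0.0758). The type with the highest Isg15 level in vehicle mice had a smaller fold than most types. This difference did not pass the edgeR test between types given below (adjusted p = 0.172 over 12 types). In the Mmp8-led cluster, log2 fold changes were 1.72 for Usp18 (adjusted p = 0.0543) and 1.24 for Isg15 (adjusted p = 0.0731). Both had an unadjusted p under 0.05, and DESeq2 called 2 members in it. Shares of genes called higher were 2.41% in precursors, 2.4% in mature neutrophils and 3.69% in the Mmp8-led cluster. The precursor call held under all 12 alternatives, while that in mature neutrophils was lost without PM 1 (adjusted p = 0.106) and without PM 2 (0.063). The mature neutrophils of the groups lay largely in different clusters, with clusters 3 and 9 mostly from vehicle mice and cluster 5 mostly from PM mice. In cluster 4, which both groups share, Usp18 was at 32.4, 9.9, 88.1 and 76.7 CPM of the cluster and Isg15 at 255, 96.1, 195 and 157. The groups overlapped there for Isg15, with vehicle 1 the highest, but not for Usp18. Isg15 also overlapped in cluster 9 (39.7, 36.0, 45.2 and 34.6 CPM), while in clusters 3 and 5 both PM mice were above both vehicle mice. For Usp18 the groups overlapped in cluster 5, where vehicle 1 was at 32.1 and PM 2 at 31.6 CPM, and not in clusters 3 and 9.

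Classical monocytes, 3479 cells, raised Usp18 and Ube2l6. Usp18 went from 10.9 and 11.9 CPM to 33.2 and 25.6 (log2 fold change 1.38, SE 0.16, edgeR adjusted p = 0.00261). Ube2l6 went from 21.5 and 17.3 to 35.2 and 38.8 (0.92, SE 0.14, adjusted p = 0.0104). Isg15 had a fold like that of Usp18 but a wider spread, at 15.2, 9.75, 38.9 and 25.5 CPM (1.37, SE 0.30, adjusted p = 0.119). The groups overlapped for Herc6 (26.5, 20.8, 29.2 and 22.7 CPM). Of all genes tested in these cells, 1.3% were called higher. The Usp18 call was lost without PM 1 (adjusted p = 0.160), and the Ube2l6 call without PM 1 (0.206) and without PM 2 (0.107). The 8 erythroid markers summed to 36.2, 102, 235 and 235 CPM in these cells, with none at 0, and the 16 genes of a list for handling stress to 6518, 5537, 2545 and 5012. Their part in the result was not tested.

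In pDC, cells known for making type I interferon, Isg15 rose from 9.63 and 13.8 CPM to 67.0 and 53.2 (log2 fold change 2.30, SE 0.37, edgeR adjusted p = 0.000124). This was the largest Isg15 fold of the 14 types. Usp18 rose from 21.2 and 43.9 to 86.5 and 86.7 (1.32, SE 0.27, adjusted p = 0.005). Ube2l6 was at 15.4, 26.3, 39.0 and 60.1 CPM (1.16, adjusted p = 0.097) and Herc6 at 30.8, 46.4, 59.7 and 64.3 (0.63, adjusted p = 0.379). Both had groups that did not overlap, without passing the test. Of all genes tested in pDC, 1.13% were called higher. The Isg15 call held under the 11 alternatives that gave it an adjusted p, and the Usp18 call was lost without vehicle 1 (adjusted p = 0.100). The 495 pDC fell into 4 subclusters, and the largest, subcluster 15.1, came almost wholly from PM mice while 15.2 and 15.3 came mostly from vehicle mice. The 7 classical monocyte markers summed to 2239, 2391, 3791 and 3737 CPM in pDC, with none at 0, and their part in the result was not tested.

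Among progenitors, Isg15 in HSPC was at 3.60, 5.25, 21.8 and 14.2 CPM, from 6, 8, 38 and 29 UMIs. It passed the filter on low counts there through the PM mice alone. The log2 fold change was 2.0 (SE 0.43, edgeR adjusted p = 0.0262), where 0.15% of all genes were called higher. This call was the least stable. It was lost under 8 of the 12 alternatives, without vehicle 1 (adjusted p = 0.598), vehicle 2 (0.239), PM 1 (0.999) or PM 2 (0.073), with DESeq2 (1.000), with doublets removed (0.152), with the interferon genes kept for clustering (0.575) and at the finer clustering (0.752). Usp18 in HSPC was at 4.20, 2.63, 16 and 10.3 CPM (1.90, adjusted p = 0.145). In GMP the log2 fold changes were 1.33 for Isg15 (adjusted p = 0.416), 1.43 for Usp18 (0.184) and 0.94 for Ube2l6 (0.0634), in a type where 0.504% of genes were called higher. In GMP 4 of the 5 members had an unadjusted p under 0.05, and DESeq2 called none.

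The lymphoid cells showed no call, but only T cells and mature B cells among them were tested for all 5 genes. In T cells Isg15 was at 35.6, 8.55, 25.8 and 26.2 CPM, so that the PM mice lay between the vehicle mice (log2 fold change 0.27, SE 0.50, edgeR adjusted p = 0.916). Usp18 in T cells was at 24.9, 13.9, 26.2 and 35.1 CPM (0.66, adjusted p = 0.485). In vehicle mice T cells also had the highest mean Herc6 level, and Herc6 in T cells did not separate the groups (55.8, 40.6, 48.6 and 64.8 CPM). In mature B cells, log2 fold changes were 1.43 for Isg15 (adjusted p = 0.188), 1.01 for Usp18 (0.274) and 0.81 for Herc6 (0.191), and both PM mice were above both vehicle mice for the 3 genes. None of the 5 members had an unadjusted p under 0.05 in T cells and 4 of 5 had one in mature B cells, and DESeq2 called none in either. Shares of genes called higher were 0.115% in T cells and 0.898% in mature B cells.

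In macrophages and cDC no member was called, beside 0.207% and 0.244% of all genes called higher. Ube2l6 was at 19.0, 50.9, 115 and 93.2 CPM in macrophages (log2 fold change 1.45, edgeR adjusted p = 0.332) and at 27.5, 22.4, 75.5 and 91.9 in cDC (1.73, adjusted p = 0.207), its largest fold. In cDC this gene passed the filter on low counts through the PM mice alone. Both types were small, with 535 and 136 cells. In each, 2 of the 4 tested members had an unadjusted p under 0.05, and DESeq2 called none. Megakaryocytes had Isg15 at 9.04, 2.06, 20.4 and 16.3 CPM (1.93, adjusted p = 0.984), in a type where 0.0% of genes were called higher.

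The log2 fold changes of the 3 genes for ISG15 attachment varied over the types, and whether the genes differ from each other was not tested. Uba7 values spanned log2 fold changes from -0.78 in plasma cells to 0.61 in pro-B and large pre-B cells, with 10 types above 0 and 8 below. All of these were uncalled, and several changed sign with a mouse left out. In T cells and megakaryocytes both PM mice were below both vehicle mice for Uba7, at 42.8, 38.5, 38.3 and 25.7 CPM and 72.3, 82.2, 55.2 and 69.9 CPM. Neither passed the test (log2 fold changes -0.32 and -0.31, edgeR adjusted p = 0.736 and 0.984). Ube2l6 was above 0 in 16 of 17 types and Herc6 in 16 of 17. The plot of the 3 enzyme genes by mouse gives each level.

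**Figure D4:**
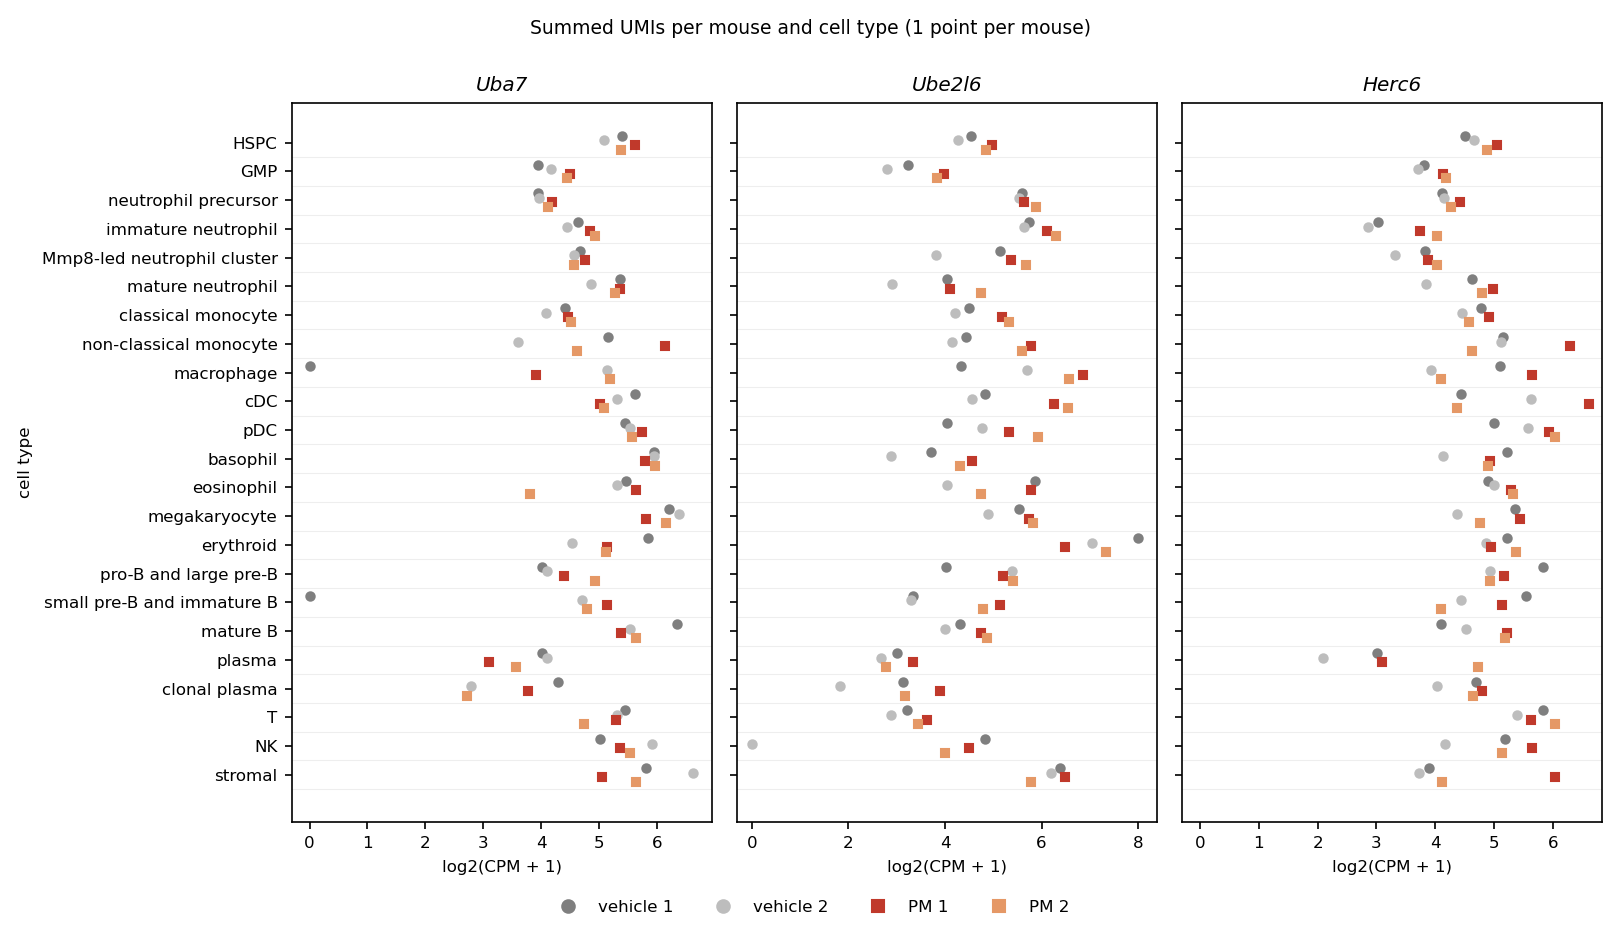
Levels of Uba7, Ube2l6 and Herc6 in 23 cell types, with log2(CPM + 1) on the horizontal axis and 1 point per mouse (grey circles vehicle, colored squares PM). In the vehicle mice erythroid cells have the highest Ube2l6 level, and Uba7 was called in no type.

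Whether a type differed from the rest was tested in 1 edgeR fit of all types, as the effect of PM in a type minus its mean effect in the other types. This fit used a common spread per gene for all types, so a small p can rest on the spread in other types. The single difference that passed was that of Ube2l6 in erythroid cells, with -1.36 on the log2 scale (SE 0.24, adjusted p = 0.000478). Ube2l6 in these cells was at 253, 130, 88.9 and 160 CPM, with groups that overlap (log2 fold change -0.61, SE 0.47, adjusted p = 0.622), in a type where 0.143% of genes were called higher. In the 3 erythroid clusters Ube2l6 levels differed. It was at 129, 186, 102 and 111 CPM of the cluster in cluster 20 and at 590, 625, 337 and 364 in cluster 29, with both PM mice below both vehicle mice, and at 229, 113, 78.0 and 152 in cluster 17, where the groups overlapped. The difference did not pass without PM 1. The 8 erythroid markers summed to 47750, 24829, 15012 and 24067 CPM and the median UMIs per erythroid cell were 6773, 7075.5, 17687 and 6460, and their part in the result was not tested. For 5164 of the 12410 genes, Usp18 among them, a whole group had no UMI in some type and the test could not be made. Of the other 7246 genes, 1.34% had a smaller effect in erythroid cells. A second fit, chosen after seeing the data, used the 12 types in which all 5 genes were tested. In some of these, such as HSPC, a gene had passed the filter through the PM mice alone. Ube2l6 in erythroid cells was again the only one to pass (-1.28, SE 0.24, adjusted p = 0.00181), where 3.95% of the 9866 genes that could be tested had a smaller effect, and it did not pass without PM 1 (adjusted p = 0.295). The lowest adjusted p of Usp18 was in erythroid cells (-0.85, SE 0.36, adjusted p = 0.169). Its differences were 1.42 in neutrophil precursors (SE 0.49, adjusted p = 0.303), 0.72 in immature neutrophils (SE 0.29, adjusted p = 0.369) and -0.93 in T cells (SE 0.39, adjusted p = 0.304). For Isg15 the lowest adjusted p was in mature neutrophils (-0.76, SE 0.31, adjusted p = 0.172). The effects on Isg15 and Usp18 were therefore not shown to differ between types, although the calls were in some types only.

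The share of cells with at least 1 UMI was compared after each cell was thinned to 2000 UMIs. For Isg15 in immature neutrophils it was 1.13%, 1.27%, 4.01% and 2.93%. Before thinning it was 4.00%, 4.24%, 8.79% and 7.67%, and 179 of the 7125 cells were too shallow to enter (30, 42, 48 and 59 per mouse). In mature neutrophils the thinned share was 9.72%, 8.29%, 12.3% and 10.8%, with 2065 of 8742 cells left out. GMP, a type with little Isg15 and a median of 23146 to 32977.5 UMIs per cell, gave 0.498%, 0%, 1.49% and 0.391%, against medians of 5588 to 8318 UMIs in immature neutrophils. GMP may hold Isg15 of their own, and RNA from outside the cell was not measured. Shares as low as those of GMP were therefore not told apart from such RNA. The vehicle shares in immature neutrophils lay above the vehicle shares in GMP and below that of PM 1 in GMP. Both PM mice were above both vehicle mice for Isg15 in 12 of the 23 types at 2000 UMIs and in 7 at 1000 UMIs. How often all genes had this order after thinning was not counted, so these numbers have no background beside them. With 2 mice against 2, the exact permutation test (two-sided) cannot give a p below 0.333, so none of these differences could pass a test alone.

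Other gene lists were read beside the members. Of 40 genes induced by type I interferon, 38 matched the files, and 102 of their 598 tested pairs of gene and type were called higher and none lower, with a median log2 fold change of 0.66. In immature neutrophils 22 of 35 were called, in neutrophil precursors 16 of 33, in the Mmp8-led cluster 11 of 36 and in classical monocytes 10 of 38. Of all genes, 4.85%, 2.41%, 3.69% and 1.3% were called higher in these 4 types. In macrophages 4 of 27 and in HSPC 4 of 32 of the list were called, beside 0.207% and 0.15% of all genes. Rsad2, the antiviral enzyme viperin, rose in immature neutrophils from 15.8 and 17.0 CPM to 83.0 and 60.4 (2.13, edgeR adjusted p = 0.000102). Rtp4, another interferon-induced gene, rose there from 12.5 and 7.73 to 47.2 and 43.9 (2.15, adjusted p = 0.000179). Ifi27l2a was called in 9 types, the most of the list, and Oasl2, a 2′-5′ oligoadenylate synthetase-like gene, in 6. Immature neutrophils thus had the highest share of this list and of the members, but also the highest share of all genes called higher (4.85%). Of the list favored by interferon gamma, 19 of 167 pairs were called higher. They were 6 of 10 in pDC, 5 of 7 in neutrophil precursors and 4 of 7 in immature neutrophils. Of all genes, 1.13%, 2.41% and 4.85% were called higher in these types. The Mmp8-led cluster had 3 of 7 and mature B cells 1 of 11. Gbp7, a guanylate-binding protein, was at 12.4, 11, 38.5 and 32.6 CPM in immature neutrophils (1.60, edgeR adjusted p = 0.000169).

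Of 14 genes of interferon signaling, 12 of 272 pairs were called higher and 1 lower, beside 1.1% of all tested pairs called higher. Irf7, a transcription factor that is itself interferon-induced, was called in 6 types, and in pDC it rose from 144 and 129 CPM to 265 and 269 (log2 fold change 0.97, edgeR adjusted p = 0.000582). Irf9, part of the complex that binds the interferon-stimulated response element, was called in 3 types, with 63.5, 61.7, 95.5 and 90.3 CPM in immature neutrophils (0.57, adjusted p = 0.00924). Irf5, another factor of this family, rose in the same cells from 0.701 and 1.45 to 7.61 and 6.88 (2.79, adjusted p = 0.000787). This was its largest fold. Irf5 was called in 2 of the 19 types tested, and its median log2 fold change over them was -0.06. Socs3, an inhibitor of cytokine signaling, was called lower in HSPC (-1.64, adjusted p = 0.022). Of the interferon genes themselves, only Ifng passed the filter in any type, and the others were near 0. Its log2 fold changes were -0.91 in T cells and -0.41 in NK cells, neither called. Ifng had 115, 58, 108 and 114 UMIs over all cells, and Ifnb1 had 1 UMI in vehicle 1 and none in the other mice.

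Ubiquitin and its enzymes, the counterparts of ISG15 and its enzymes, made up another list. None of its 280 pairs was called higher by edgeR, beside 1.1% of all tested pairs. In this direction 11 had an unadjusted p under 0.05, and DESeq2 called none. Median log2 fold changes over the tested types were 0.33 for Herc3 and 0.11 for Uba6, beside 0.40 for Herc6 and 0.10 for Uba7. For Herc1, Herc2 and Herc4 they were -0.12, -0.11 and -0.10, and over all pairs of the list -0.04. By edgeR 2 pairs were called lower, both of Rps27a, which encodes ubiquitin fused to a ribosomal protein (-1.17, edgeR adjusted p = 0.0402 in mature neutrophils and -0.83, adjusted p = 0.0243 in the Mmp8-led cluster). In immature neutrophils the log2 fold changes were -0.11 for Uba1, the ubiquitin-activating enzyme, -0.21 for Ube2l3, the nearest relative of Ube2l6, -0.04 for Herc1, -0.00 for Herc2 and -0.13 for Herc4. Their adjusted p lay between 0.268 and 0.995. Of other ISG15 partners, only Trim25, itself a ligase and an ISG15 target, was called, in immature neutrophils (0.58, adjusted p = 0.0209) and neutrophil precursors (0.92, adjusted p = 0.0221). These were 2 of the 193 pairs of that list (1.04%), near the 1.1% of all tested pairs. Of the other ubiquitin-like systems, Sumo2 was called higher in the Mmp8-led cluster (0.57, adjusted p = 0.0309), 1 of 331 pairs.

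**Figure D5:**
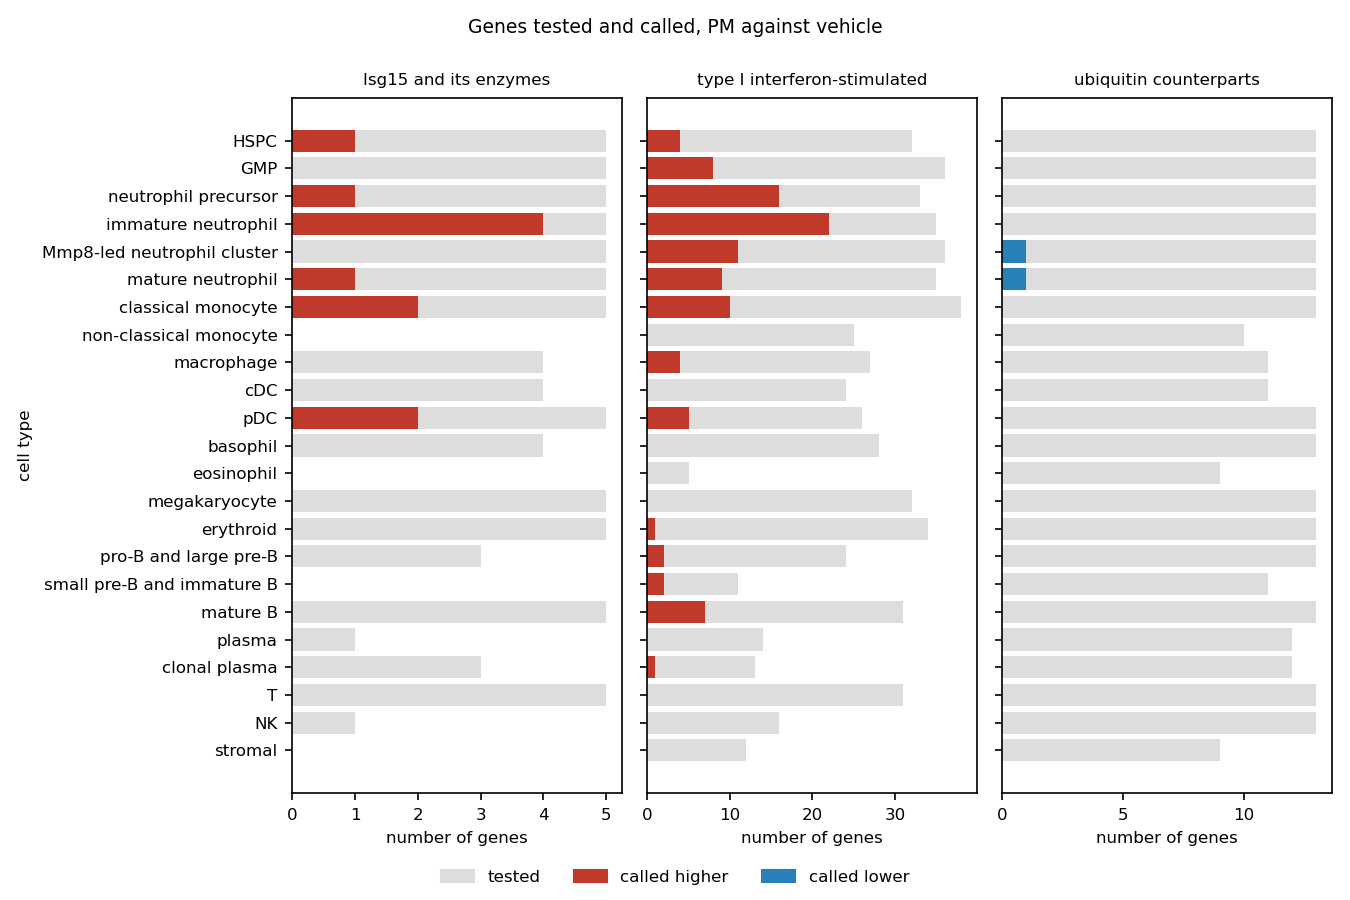
Number of genes tested (grey) and called (red higher, blue lower) per cell type, for the 5 genes, the genes induced by type I interferon and the ubiquitin counterparts. Immature neutrophils have the most red in the first 2 panels, and the ubiquitin panel has none.

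The genes whose levels most resembled each member were found by Pearson's r of log2(CPM + 1) over the 92 sums of 23 types and 4 mice, which share mice and depth. For Isg15 they were Oasl2 (r = 0.77), Rsad2 (0.73), Oas2 (0.70), Agpat4 (0.69) and Irf7 (0.66). Irf9 (0.71) and Slfn5 (0.70) were most like Usp18. For Uba7 they were Jak2 (0.71) and Stat5a (0.68), for Ube2l6 Cmpk2 (0.62) and Aldh2 (0.60), and for Herc6 Sppl3 (0.65) and Tap1 (0.65). Among the members, Isg15 and Usp18 were the closest pair (0.67), and the other pairs lay between 0.13 and 0.45. The sums that gave r include the PM mice and the immature neutrophils, so the following changes are not independent of how the genes were picked. No neighbor of Uba7 was called in immature neutrophils, with log2 fold changes of -0.09 for Jak2 and 0.02 for Stat5a. Agpat4, an acyltransferase of lipid synthesis, rose there from 1.01 and 2.70 CPM to 10.7 and 8.89 (2.45, edgeR adjusted p = 0.00267), and Slfn5 from 4.13 and 2.51 to 25.6 and 20.2 (2.76, adjusted p = 0.000166).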

How the data were processed

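Bone marrow of 2 vehicle and 2 PM mice was measured, with a library for each. The authors ran Cell Ranger (6.0.1 in the file headers) and deposited unnormalized counts, the UMIs of each gene in each barcode. The methods name GRCm38 and the submitters' processing notes GRCm39. Of the gene IDs in the files, 99.8% were in GENCODE release 21 for mouse (GRCm38), whose positions are given. Library totals were 69828595 to 109447030 UMIs. Shares of cells with a UMI carry counting error beside the spread between mice.

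Cells below 300 genes or above 20% mitochondrial counts were dropped and the rest clustered in scanpy 1.11.5 (2500 variable genes without 72 interferon genes, 30 components, 15 neighbors, leidenalg 0.10.2 at resolution 1, seed 1). Clusters were named from marker lists, and 3 mixed clusters were clustered again. Names required 3 raised markers and at most 50% called doublets. Counts were summed per mouse and type, with at least 10 cells per mouse, and tested under R 4.3.3 with edgeR 4.0.16 (filterByExpr, TMM, quasi-likelihood with robust dispersion, condition as the only term, Benjamini-Hochberg over all genes of the type). Levels are CPM of the TMM-adjusted totals, except those of single clusters, which are CPM of the plain total. The labels do not say whether mice of one group were handled apart, and the paper does not assign mice to its 2 experiments. The p-values of the fits per type therefore measure the spread between 2 libraries a group, which may be technical. The effect in a type was set against the mean of the other types in 1 edgeR fit of all sums with the mouse as block, and again over 12 types. In these fits over types a gene had a common spread for all types, so their p-values also rest on the spread in other types. Fits were tested on simulated data. In mature neutrophils 48.7% of 2-fold and 91.6% of 4-fold changes were recovered, and in cDC 7.56% and 90.5%.

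Alternatives were DESeq2 1.42.0, library size scaling, no filter, the replicate block, each mouse left out, doublets removed, 500 genes and 10% mitochondrial counts as limits, interferon genes kept for clustering, and resolution 2. The members and gene lists were chosen with earlier results of these data known. Named genes were the 5 members, up to 4 genes per list called in most types, Uba1, Ube2l3, Herc1, Herc2 and Herc4, and the genes most like each member with a mean of at least 20 CPM.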

Additional observations from a re-analysis of the deposited data

Results flagged for a closer look

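Ube2l6 in erythroid cells stood out because its PM effect differed from the mean effect in the other types by -1.36 on the log2 scale (SE 0.24, edgeR adjusted p = 0.000478 in the interaction test). It was at 253 and 130 CPM in the vehicle mice and at 88.9 and 160 CPM in the PM mice, so that the groups overlap in the type as a whole and in its cluster 17, but in clusters 20 and 29 both PM mice lay below both vehicle mice. In 16 of the 17 tested types the log2 fold change was above 0. The difference did not pass without PM 1, whose erythroid cells had a median of 17687 UMIs per cell beside 6460 to 7075.5 in the other mice. The interaction test used a spread per gene that was common to all types, not that of erythroid cells alone.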

How the results depend on the processing

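The number of types with Isg15 called was 3 and became 6 with library size scaling, 9 without the filter on low counts, 5 with the replicate block and 2 (without PM 1) to 7 (without vehicle 1) with a mouse left out. For Usp18 the 5 types became 8 without the filter and 3 (without PM 1) to 5. For Ube2l6 the 2 types became 1 with DESeq2, 4 with library size scaling, without the filter and with the replicate block, and 0 (without PM 2) to 4 (without vehicle 1). For Herc6 the 1 type became 0 with interferon genes kept for clustering and 0 (without PM 2) to 2 (without vehicle 1). Uba7 was called in no type in any of these. In all cells together, 1 gene was called with DESeq2, library size scaling or no filter. The cause of these changes was not tested. DESeq2 gave no adjusted p for Isg15 and Usp18 in pDC. Over all genes and types, 2642 calls became 1649 with DESeq2, 4015 with library size scaling, 7311 without the filter and 2775 with the replicate block. Under the block the mouse numbers were used as pairs, although same-numbered mice deviated with a correlation of -0.09 over all cells and only 2 pairs exist. Whether these numbers mark the 2 experiments that the paper mentions is not stated. Of the 23 types, the number with every PM mouse above for the thinned Isg15 share went from 12 to 7 at 1000 UMIs, without a count over all genes to set beside it. The number of differences between types that passed was 1 and ranged from 0 (without PM 1) to 2 (without vehicle 2, with Uba7 in erythroid cells), and the fit of 12 types added after seeing the data gave 1. Among the log2 fold changes per type and over all cells, 278 of 336 kept their direction and side of the threshold with a mouse left out. Under the other alternatives 592 of 638 did.

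Values that changed sign were all uncalled. With a mouse left out, the log2 fold change ranged from -0.45 to 1.59 for Isg15 in T cells, from -0.45 to 0.75 for Usp18 in basophils and from -0.089 to 1.36 for Ube2l6 in pro-B and large pre-B cells. For Uba7 it ranged from -0.061 to 0.27 over all cells, -0.069 to 0.12 in the Mmp8-led cluster, -0.49 to 0.42 in NK cells, -0.16 to 0.027 in basophils, -0.97 to 0.70 in clonal plasma cells, -0.74 to 0.62 in erythroid cells, -0.44 to 5.79 in macrophages and -0.060 to 0.44 in mature neutrophils. For Herc6 it ranged from -0.31 to 0.81 in basophils, -0.059 to 0.34 in classical monocytes, -0.072 to 0.37 in erythroid cells, -0.46 to 1.16 in macrophages, -0.21 to 0.81 in megakaryocytes and -0.75 to 0.14 in pro-B and large pre-B cells. Uba7 became -0.0022 in the Mmp8-led cluster without the filter and -0.0058 in pDC with interferon genes kept for clustering, and Herc6 -0.068 in erythroid cells and 0.10 in pro-B and large pre-B cells with doublets removed. In the simulations, 2-fold changes were recovered in 7.56% of genes in cDC and 47.4% in clonal plasma cells, the smallest types simulated, and in 80.4% in classical monocytes, so that a missed call, in cDC above all, is no sign of an unchanged gene.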
